A study of Mus musculus with 14 samples.

Results

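The genes described here are 10 parts of the machinery that removes maternal mRNA in the early mouse embryo: Btg4, Cnot6l, Cnot7, Cnot8, Zfp36l2, Ythdf2, Tut4, Tut7, Pabpn1l and Dcp1a. They were taken by gene name from a table of 56923 genes, each name matched 1 row, and all 10 passed the filter on low counts in every comparison below. RNA-seq counts were used from 14 libraries of mouse 2-cell embryos, 2 libraries for each of 7 conditions, with 5 embryos of the ICR strain pooled per library. Early 2-cell embryos were collected at 30 h and late 2-cell embryos at 54 h after the ovulation-inducing injection of hCG. Zygotes came from superovulated females.

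At both stages, G&N embryos were cultured with Gne140 (5 µM), an inhibitor of both lactate dehydrogenase subunits, NMN (50 µM), a precursor of NAD+, and lactate (10 mM). G&N-L embryos had Gne140 and NMN in a medium without lactate from 24 h after hCG. The treatment labels of the early libraries name fewer agents than their titles, and the titles were followed. At the late stage, G&N-L + Lac-CoA embryos were G&N-L embryos injected as zygotes with lactyl-CoA (1 mM), which the labels give only as CoA. H3K18R embryos were injected with mRNA of histone H3 in which the lysine at position 18 is replaced by arginine, and WT embryos served as their control. The study's methods describe injection of unmutated H3 mRNA for WT, and the counts alone do not tell whether it was present. WT and H3K18R embryos were not given Gne140 or NMN according to the labels. The overexpressed mutant H3 was added to the embryo's own H3, so H3K18R is not a replacement of all H3.

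An mRNA is usually removed in steps. The CCR4-NOT complex shortens its poly(A) tail, the cap is then taken off and the body is degraded from the 5′ end, or degraded from the 3′ end by the exosome. In the fully grown oocyte, transcription is silent and stored mRNAs are stable. Their removal starts with meiotic maturation and depends on factors that are themselves translated from stored mRNA, and a further wave of removal follows once the zygotic genome is transcribed. Btg4 is the maternal adaptor that brings CCR4-NOT to mRNA, Cnot6l, Cnot7 and Cnot8 are deadenylase subunits of that complex, and Zfp36l2 and Ythdf2 bind AU-rich elements and m6A-modified mRNA. Tut4 and Tut7 add uridines to short poly(A) tails, Pabpn1l is a poly(A)-binding protein of the female germ line and early embryo, and Dcp1a is a cofactor of the decapping enzyme.

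The promoters printed below belong to the 4 members that passed the test in a comparison of the stages. Promoters were read as the 300 bases before the start of the canonical transcript (GRCm39, the mm39 build of the files; GENCODE M39 annotation), 5′ to 3′ on the strand of the gene, with every CG dinucleotide in capitals. Btg4, whose transcript level was the highest of the 10 and fell between the stages, is at chr9:51016878-51017177 on the plus strand. Pabpn1l, whose level fell most, is at chr8:123349479-123349778 on the minus strand. Ythdf2 is at chr4:131939615-131939914 on the minus strand and Cnot8 at chr11:57994517-57994816 on the plus strand. The levels of both were higher late with and without lactate, and each passed the test in a single stage comparison.
Btg4 promoter: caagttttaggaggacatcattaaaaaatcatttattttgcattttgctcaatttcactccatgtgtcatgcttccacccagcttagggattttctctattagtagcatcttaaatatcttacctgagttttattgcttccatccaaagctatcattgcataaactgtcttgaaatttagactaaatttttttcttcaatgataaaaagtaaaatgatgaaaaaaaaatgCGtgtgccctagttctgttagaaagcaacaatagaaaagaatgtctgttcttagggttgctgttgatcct
Pabpn1l promoter: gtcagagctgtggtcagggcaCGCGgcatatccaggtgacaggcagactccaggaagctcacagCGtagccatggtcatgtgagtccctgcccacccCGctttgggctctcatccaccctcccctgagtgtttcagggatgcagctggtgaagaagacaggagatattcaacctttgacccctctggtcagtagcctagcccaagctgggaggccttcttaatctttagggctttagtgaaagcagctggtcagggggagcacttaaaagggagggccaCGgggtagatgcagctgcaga
Ythdf2 promoter: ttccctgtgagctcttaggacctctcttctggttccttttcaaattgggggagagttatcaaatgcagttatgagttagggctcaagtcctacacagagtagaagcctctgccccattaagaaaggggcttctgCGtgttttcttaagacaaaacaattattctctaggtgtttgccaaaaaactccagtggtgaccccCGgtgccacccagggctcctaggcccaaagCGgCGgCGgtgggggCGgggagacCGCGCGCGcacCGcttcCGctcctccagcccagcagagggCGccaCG
Cnot8 promoter: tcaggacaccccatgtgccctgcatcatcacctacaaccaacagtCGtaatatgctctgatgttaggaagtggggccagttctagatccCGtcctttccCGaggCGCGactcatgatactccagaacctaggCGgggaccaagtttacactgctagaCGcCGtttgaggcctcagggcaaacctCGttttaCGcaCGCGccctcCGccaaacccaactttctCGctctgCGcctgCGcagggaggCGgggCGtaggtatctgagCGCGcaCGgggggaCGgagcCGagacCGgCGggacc

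The Btg4 window held 1 CG dinucleotide and had a GC content of 32.3%, against a median of 9 CG dinucleotides and 52.3% GC over the windows of 21580 protein-coding genes. As few or fewer CG dinucleotides were present in 14% of those windows. The Pabpn1l window held 5 CG dinucleotides, a count reached or undercut by 37.7% of windows. The Ythdf2 and Cnot8 windows held 14 and 25, and the other 6 members held between 13 (Tut4) and 47 (Cnot6l). Thus 2 of the 10 genes lay below the median and 8 lay above it. No methylation or binding data were used here, so the windows are given as sequence only.

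The second feature was the 3′ end of the transcript. The cytoplasmic polyadenylation element, read here as the letters TTTTAT or TTTTAAT, is the site through which stored oocyte mRNAs are known to have their tails lengthened, and AATAAA or ATTAAA is the polyadenylation signal. In the last 100 bases of the canonical transcript, sense strand only, 4 of the 10 members held TTTTAT or TTTTAAT, and 15.9% of 21550 protein-coding transcripts did. AATAAA or ATTAAA was found in this window in 7 of the 10 members and in 74.0% of transcripts. The 30-base stretches around the element are printed with the element and any AATAAA in capitals. In Dcp1a the printed element and the signal share bases, and in Cnot8 the signal follows the element. Dcp1a also held an element that is not printed, starting 67 bases from the end, where the signal starts 39 bases from it. Btg4 and Cnot7 had neither AATAAA nor ATTAAA in the last 100 bases.
Btg4 3′ end: aaatccctTTTTATgtctttttaaaagttt
Cnot7 3′ end: taagacacTTTTATtcctttctttttttga
Cnot8 3′ end: atttatgtTTTTAATtttgtaaAATAAAga
Dcp1a 3′ end: atatatttTTTTAATAAAatttcaaaacca

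These matches are descriptions of letters, not of sites in use. In the stage comparisons below, Btg4 passed the test, as lower, with lactate only, and Cnot8, as higher, without lactate only. Cnot7 and Dcp1a passed it in neither, and Dcp1a was the closest to passing among those that missed it with lactate.

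The libraries held between 20350427 and 61275465 counts assigned to genes. Levels below are CPM, the counts of a gene scaled to the size of the library and by TMM. This is a relative scale with no spike-in, and TMM makes a value differ from the plain share of a library's counts. The TMM factors were 0.826 to 0.940 in the early libraries and 0.980 to 1.14 in the late ones. This scaling therefore raised the early values against the late ones. A loss of the molecules of a gene cannot be told apart from a gain of other mRNA, nor fewer cells from less RNA per cell. The cDNA priming is not given in the sources used here, and whether the length of poly(A) tails entered the counts was not tested. The 2 libraries of a condition differed by far more than counting noise, and nothing in the labels says that they came from separate matings, so p-values measure the spread between these libraries. The labels mention 3 replicates, and the libraries beyond 2 a condition were not analysed here. The summed level of 20 oocyte-derived transcripts was 29114 to 37386 CPM in the early libraries and 13924 to 19261 CPM in the late ones. The sum of 8 genes of 2-cell genome activation was 97.3 to 181 CPM early and 967 to 2913 CPM late. Of 13 cumulus cell markers, 3 to 9 had a count in a library, with Amh at 0 throughout, and they summed to at most 42.3 CPM, in an H3K18R library. Of 5 sperm markers, 2 to 4 had a count, with Tnp1 at 0 throughout, and they summed to at most 22.4 CPM.

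**Figure D1:**
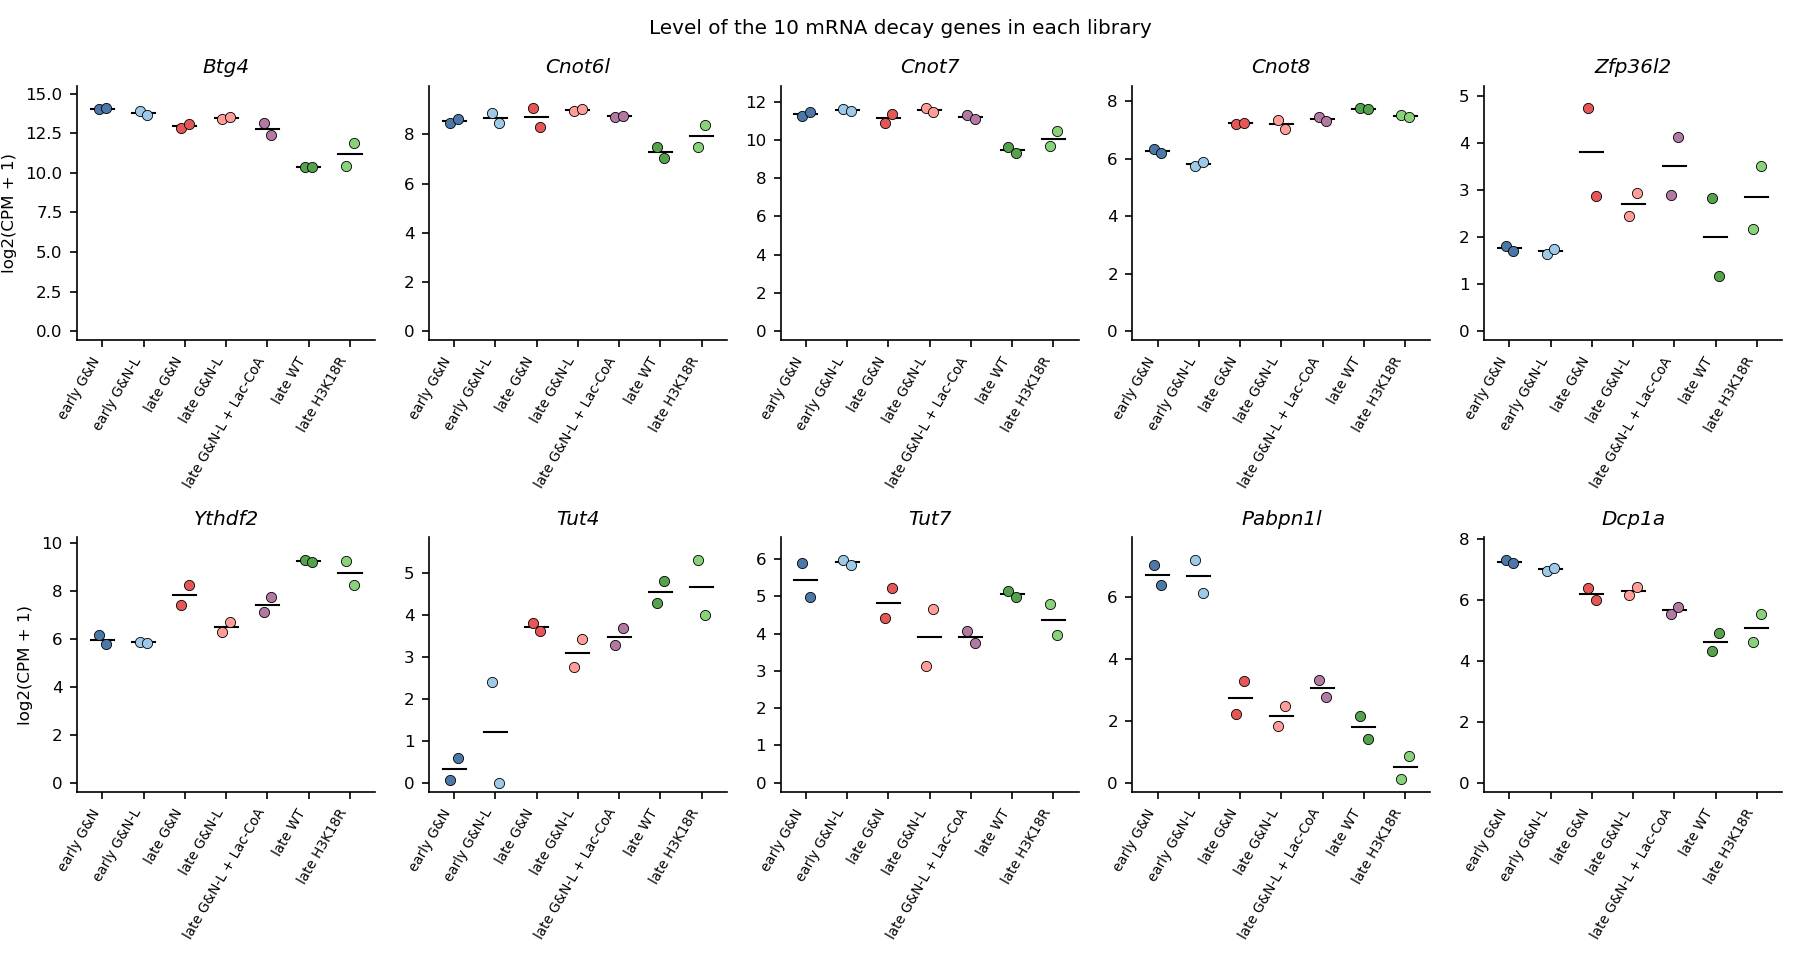
Level of each of the 10 genes as log2(CPM + 1) in every library (points, 2 per condition) with the mean of the points (horizontal lines), for the 2 early and 5 late 2-cell conditions. On this scale, Btg4, Pabpn1l and Dcp1a were higher in all 4 early libraries than in all 10 late ones, and Cnot8, Ythdf2 and Tut4 were lower. In plain percentages of counts, before TMM, Btg4 overlapped between early and late G&N-L.

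Btg4 (ENSMUSG00000032056, chromosome 9) was by a wide margin the most abundant member. Its level was 16468 and 17225 CPM in early G&N, 15632 and 13044 CPM in early G&N-L, 7193 and 8625 CPM in late G&N, and 11011 and 11746 CPM in late G&N-L. It was 8982 and 5413 CPM in late G&N-L + Lac-CoA, 1298 and 1302 CPM in WT, and 1352 and 3857 CPM in H3K18R. In early G&N, 1.37% and 1.42% of all gene counts belonged to this 1 gene. Per kilobase of its 1574-base canonical transcript, the early G&N mean was 10703 ± 340 CPM per kb (SD, n = 2), and that of the next member, Cnot7, was 556 ± 55.7 CPM per kb. Early G&N had the highest of the 7 condition means, followed by early G&N-L and, at the late stage, by G&N-L, G&N, G&N-L with Lac-CoA, then H3K18R and last WT. Neighbours in this order did not overlap, except late G&N and late G&N-L + Lac-CoA. As plain percentages of counts, before TMM, Btg4 was 1.29% and 1.23% in early G&N-L. The late G&N-L values were 1.21% and 1.26%, so these 2 conditions overlapped on that scale.

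Among the deadenylases, Cnot7 (chromosome 8) was the most abundant, at 2432 and 2802 CPM in early G&N, 3082 and 2909 CPM in early G&N-L, 1885 and 2620 CPM in late G&N, and 3213 and 2844 CPM in late G&N-L. It was 2476 and 2207 CPM with Lac-CoA, 796 and 633 CPM in WT, and 810 and 1418 CPM in H3K18R. The 10 libraries cultured with Gne140 and NMN therefore lay between 1885 and 3213 CPM at both stages, and the WT and H3K18R libraries lay below all of them. Cnot7 shares 948 exon bases with Vps37a and 3381 with Zdhhc2 on the other strand, and whether the counting used strand is not given in the sources used here; the highest count of those genes was 3242, against 123933 for Cnot7 in an early G&N library. Cnot6l (chromosome 5), the catalytic subunit of the other nuclease family in the complex, was 353 and 399 CPM in early G&N and 467 and 349 CPM in early G&N-L. It was 533 and 319 CPM in late G&N, 495 and 523 CPM in late G&N-L, and 418 and 429 CPM with Lac-CoA. WT had 177 and 132 CPM and H3K18R 176 and 336 CPM. The second H3K18R library, at 336 CPM, lay above the second late G&N library, at 319 CPM. Of the neighbours in the order of condition means, early G&N and H3K18R were apart and all others overlapped.

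Cnot8 (chromosome 11), the close paralog of Cnot7, ran the other way. It was 79.2 and 72.6 CPM in early G&N, 52.4 and 58.1 CPM in early G&N-L, 147 and 153 CPM in late G&N and 163 and 132 CPM in late G&N-L. It was 173 and 159 CPM with Lac-CoA, 216 and 210 CPM in WT, and 185 and 176 CPM in H3K18R. All 10 late libraries lay above all 4 early ones, and WT was the highest condition. Part of Cnot8 is 97.8% identical to the pseudogene Gm18860 over 760 bases, and 851 of its exon bases lie over Gemin5, so reads of these genes may be split between them. The highest count of Gm18860 in a library was 952 and that of Gemin5 was 1528, against 2079 and 1281 for Cnot8 in early G&N-L.

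The ratio of Cnot7 to Cnot8, each per kilobase of canonical transcript, describes the make-up of this pair within a library. It was 14.3 and 18 in early G&N, 27.5 and 23.4 in early G&N-L, 5.97 and 8.02 in late G&N, and 9.21 and 10.1 in late G&N-L. It was 6.70 and 6.47 with Lac-CoA, 1.72 and 1.40 in WT, and 2.04 and 3.76 in H3K18R. Cnot7 thus exceeded Cnot8 in every library, by a margin that was smallest in WT. At both stages the ratio was higher in both G&N-L libraries than in both G&N libraries, and with 2 libraries against 2 the smallest two-sided exact permutation p is 0.333.

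Zfp36l2 (chromosome 17), a CCCH zinc-finger protein that binds AU-rich elements and recruits CCR4-NOT, was 2.53 and 2.25 CPM in early G&N, 2.14 and 2.36 CPM in early G&N-L, 25.8 and 6.36 CPM in late G&N and 4.50 and 6.71 CPM in late G&N-L. It was 6.44 and 16.6 CPM with Lac-CoA, 6.13 and 1.26 CPM in WT and 3.55 and 10.4 CPM in H3K18R. The early libraries were close to each other, while the 2 libraries of 4 of the 5 late conditions, all but G&N-L, lay far apart, and no 2 neighbouring conditions in the order of means were separated.

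Ythdf2 (chromosome 4), the reader that marks m6A-modified mRNA for decay, was 69.4 and 54 CPM in early G&N, 57.9 and 56.3 CPM in early G&N-L, 171 and 302 CPM in late G&N and 77.0 and 102 CPM in late G&N-L. It was 136 and 211 CPM with Lac-CoA, 625 and 588 CPM in WT, and 604 and 300 CPM in H3K18R. Every late library was above every early one, and among the late embryos the G&N-L pair was the lowest and the WT pair had the highest mean. Its order of condition means was WT, H3K18R, late G&N, late G&N-L + Lac-CoA, late G&N-L, early G&N and early G&N-L. In that order late G&N-L stood apart from both its neighbours, and all other neighbours overlapped. Parts of Ythdf2 are 95.2% and 96.3% identical to the pseudogenes Gm6823 and Gm8401, over 1840 and 1740 bases. The highest counts of these pseudogenes were 2 and 19, and how reads were split was not tested.

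**Figure D2:**
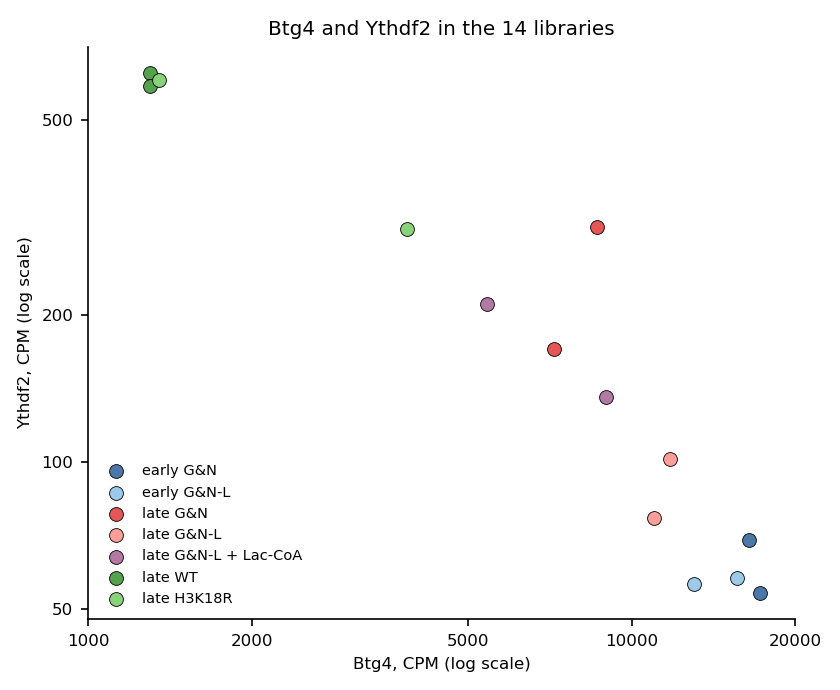
Ythdf2 against Btg4 in the 14 libraries, both as CPM on log axes, coloured by condition. The early libraries are at the lower right, WT and the first H3K18R library at the upper left, and late G&N-L lies nearest to the early libraries.

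Over the 14 libraries, log2(CPM + 1) of Ythdf2 and of Btg4 had a Pearson correlation of -0.94, the most negative of any pair of members. Btg4 and Cnot7 had the most positive one, 0.96, followed by Btg4 and Dcp1a at 0.93. These libraries share their stage and culture in pairs and their values are relative to a total, so the correlations only describe the plot of Ythdf2 against Btg4. The 2 H3K18R libraries fell far apart on it, the first beside WT and the second toward the Lac-CoA libraries.

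The terminal uridylyltransferases also differed from each other. Tut7 (chromosome 13) was 58.3 and 30.5 CPM in early G&N, 61.9 and 56.0 CPM in early G&N-L, 20.3 and 36.1 CPM in late G&N and 7.80 and 24.2 CPM in late G&N-L. It was 15.6 and 12.3 CPM with Lac-CoA, 34.4 and 30.7 CPM in WT, and 26.7 and 14.5 CPM in H3K18R. No 2 neighbouring conditions in its order were apart. Tut7 shares 1631 exon bases with Etohd2 on the other strand. The highest count of Etohd2 was 91, against 300 for Tut7 in the first late G&N-L library. Tut4 (chromosome 4) had 2 and 22 counts in early G&N, and 170 and 0 counts in early G&N-L. A count of 0 in that library allows a level of up to 0.128 CPM, and this limit covers counting error only. In the late libraries Tut4 was 13.0 and 11.3 CPM in G&N, 5.80 and 9.76 CPM in G&N-L, 8.69 and 12 CPM with Lac-CoA, 18.5 and 27 CPM in WT, and 38.9 and 15.1 CPM in H3K18R. Tut4 was thus near the detection limit in 3 of 4 early libraries and present in all late ones. Its exons share 223 bases with Prpf38a on the other strand, a gene with up to 20811 counts, and how much of the Tut4 count comes from there was not tested. Per kilobase, Tut7 exceeded Tut4 by 21.3-fold or more in the 3 early libraries with a Tut4 count and by 1.01-fold to 4.70-fold in the late ones.

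Pabpn1l (chromosome 8) showed the widest span of all members. It was 131 and 83.8 CPM in early G&N, 147 and 69.7 CPM in early G&N-L, 3.64 and 8.77 CPM in late G&N, and 2.60 and 4.59 CPM in late G&N-L. It was 8.95 and 5.90 CPM with Lac-CoA and 3.48 and 1.70 CPM in WT, and H3K18R had only 2 and 19 counts. The 4 early libraries all lay above 69 CPM and no late library reached 9 CPM.

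Dcp1a (chromosome 14) was 157 and 145 CPM in early G&N, 121 and 131 CPM in early G&N-L, 83.3 and 62.0 CPM in late G&N, and 70.6 and 85.0 CPM in late G&N-L. It was 45.7 and 52.7 CPM with Lac-CoA, 18.8 and 29.2 CPM in WT, and 23.3 and 44.7 CPM in H3K18R. Its condition means thus came in the order of those of Btg4, with early above late and WT lowest.

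The first comparison asks what happened to these genes between the early and the late 2-cell stage in the presence of lactate. With lactate, Btg4 fell 2.25-fold (log2 fold change -1.17 ± 0.26 SE, adjusted p = 0.0427) and Pabpn1l fell 18-fold (-4.17 ± 0.54, adjusted p = 0.0131). Ythdf2 rose 3.66-fold (1.87 ± 0.35, adjusted p = 0.0296). These 3 of 10 members passed the threshold of an adjusted p under 0.05, where 13.7% of the 19443 genes tested did, 8.18% higher and 5.47% lower (members: 1 higher, 2 lower). The next closest were Dcp1a (-1.12 ± 0.28, adjusted p = 0.0546), Tut4 (adjusted p = 0.0558), Cnot8 (0.91 ± 0.24, adjusted p = 0.0622) and Zfp36l2 (2.68 ± 0.84, adjusted p = 0.0797). All 4 of these had late libraries that did not overlap the early ones. Groups did not overlap for 7 of the 10 members and for 64.6% of all genes tested, so the share among the members was near that of all genes. Cnot6l (0.10 ± 0.34), Cnot7 (-0.30 ± 0.29) and Tut7 (-0.70 ± 0.45) overlapped between the stages. The median log2 fold change was -0.10 over the members and 0.08 over all genes tested.

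The calls rest on few libraries. That of Pabpn1l was lost without the first late G&N library (adjusted p = 0.0527), where its log2 fold change was -3.69, and without the second it was -4.94. The calls of Btg4 and Ythdf2 were lost without either late G&N library (adjusted p up to 0.21 and 0.112), with the log2 fold change still between -1.31 and -1.01 and between 1.40 and 2.21. Ythdf2 also lost its call without the second early G&N library. Size factors of DESeq2 in place of TMM gave Btg4 an adjusted p of 0.0582 and a fit on all 14 libraries 0.076, and with library totals the median of all genes moved from 0.08 to 0.46, so levels are relative to that choice.

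Without lactate, Pabpn1l again fell, 31.0-fold (-4.96 ± 0.51, adjusted p = 0.00918), and Cnot8 rose 2.56-fold (1.35 ± 0.22, adjusted p = 0.0242). These were 2 of 10 members, and 11.8% of 18604 genes tested passed the threshold, 5.97% higher and 5.87% lower. Btg4 was -0.39 ± 0.11 (adjusted p = 0.0774), Dcp1a -0.76 ± 0.20 (adjusted p = 0.0693) and Tut7 -1.94 ± 0.56 (adjusted p = 0.0761). Ythdf2 was 0.58 ± 0.22, which had an adjusted p of 0.139. Groups did not overlap for 9 of 10 members, all but Cnot7, and for 62.5% of all genes tested. In plain percentages of counts, before TMM, the Btg4 groups did overlap. The Cnot8 call was lost with any 1 of the 4 libraries left out (adjusted p 0.0607 to 0.107), and the Pabpn1l call without the first late G&N-L library (adjusted p = 0.0606). The log2 fold change of Pabpn1l was between -5.38 and -4.40 with 1 library left out.

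**Figure D3:**
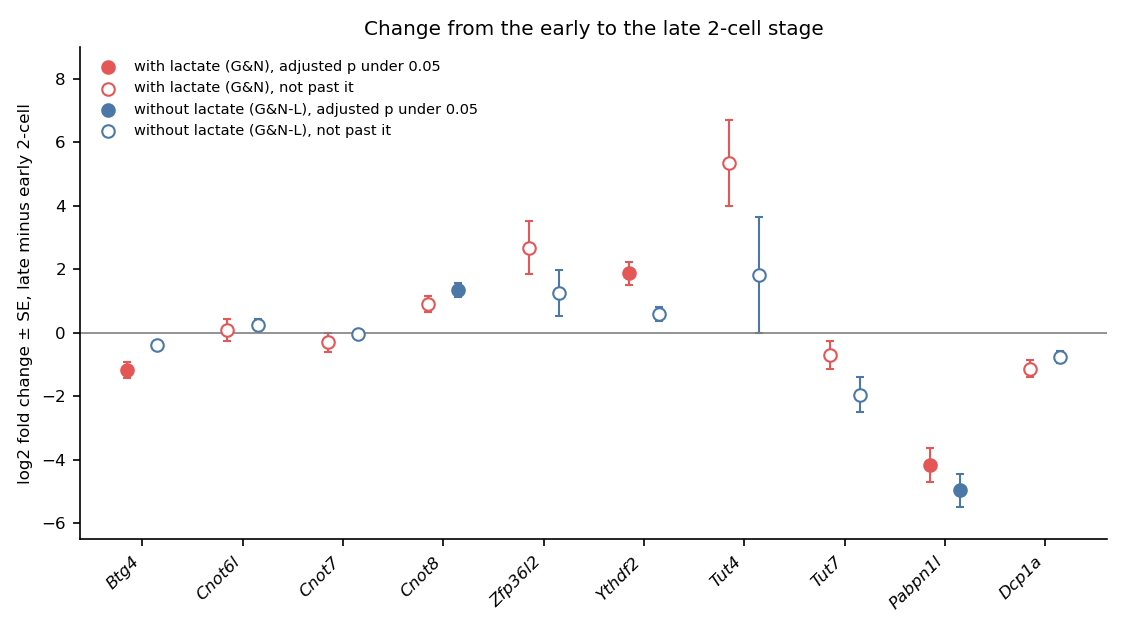
Log2 fold change from the early to the late 2-cell stage (± SE) for each gene, with lactate (red) and without (blue), where filled points had an adjusted p under 0.05. Pabpn1l lies at -4.17 and -4.96, and Btg4 and Ythdf2 lie farther from 0 with lactate (-1.17 and 1.87) than without (-0.39 and 0.58).

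A gene past the threshold with lactate and not without it has not been shown to differ, so the difference itself was tested as an interaction of stage and lactate. It was 0.73 ± 0.25 for Btg4 (adjusted p = 0.65) and -1.34 ± 0.42 for Ythdf2 (adjusted p = 0.639), taken as the change without lactate minus the change with it. None of the 10 members and none of the 22287 genes tested (0.0%) passed the threshold; 1683 genes had an unadjusted p under 0.05, and DESeq2 called 224 genes and edgeR without the filter 361, none of them a member. No difference between the stage changes with and without lactate was thus called for Btg4 or Ythdf2. Of the 20 oocyte-derived transcripts, 16 had higher estimates in the interaction, as Btg4 did, and 4 lower. Their median was 0.41, and their part in the Btg4 value was not tested.

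Within the late 2-cell stage, lactate removal was the study's main contrast. The mean of Btg4 was 11378 ± 519 CPM without lactate against 7909 ± 1012 CPM with it (SD, n = 2), a log2 difference of 0.58 ± 0.14 (adjusted p = 0.321). For Ythdf2 the means were 89.3 ± 17.5 CPM without and 236 ± 93.0 CPM with lactate, a log2 difference of -1.35 ± 0.32 (adjusted p = 0.321). In both genes the G&N-L level lay between that of the early embryos and that of late G&N, and its libraries did not overlap with late G&N. Cnot7 was 0.48 ± 0.19 and Tut4 -0.61 ± 0.51, also without overlap. Non-overlap was thus present in 4 of 10 members and in 43.5% of 19481 genes. No member and no gene (0.0%) passed the threshold in edgeR with its default filter on low counts, where 2332 genes had an unadjusted p under 0.05. DESeq2 on the same genes called 916, among them Btg4 (0.63, adjusted p = 0.0355) and Ythdf2 (-1.30, adjusted p = 0.00477). Without the filter edgeR called 317 of 28941 genes, 252 of them lower without lactate, and Ythdf2 was among the lower ones (adjusted p = 0.0321). With at least 10 counts in every library it called 114 genes and with all 14 libraries 11, none of them a member. The sum of the genome activation genes was 1900 and 2256 CPM in G&N-L and 1674 and 1843 CPM in late G&N. Of the 20 oocyte-derived transcripts, 15 had higher estimates without lactate and 5 lower, with a median log2 fold change of 0.31 and none called. Their sum was 15861 and 19261 CPM in G&N-L and 17373 and 17775 CPM in late G&N. The part of these lists in the differences of the members was not tested. Late G&N is the reference here and the endpoint of the stage change with lactate, so the comparisons share libraries and are not independent.

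Early embryos, collected at 30 h when the medium without lactate had begun at 24 h, were compared the same way. None of the 10 members and none of 17343 genes (0.0%) passed the threshold, 784 genes had an unadjusted p under 0.05, and DESeq2 called 37 genes and edgeR without the filter 42, none of them a member. Cnot7 was higher and Btg4, Cnot8 and Dcp1a lower in both G&N-L libraries than in both G&N libraries, with log2 differences of 0.30 ± 0.20, -0.12 ± 0.17, -0.33 ± 0.23 and -0.13 ± 0.20. Non-overlap of this kind was seen in 32.7% of all genes. Ythdf2, at 0.02 ± 0.22, and Zfp36l2, at 0.04 ± 0.79, had the smallest differences, the latter with a wide error. Tut4 could not be compared, because its level in G&N-L rested on 1 library. The fitted log2 difference was 2.94 with that library and -6.47 without it, a value against a library at 0 that depends on the prior count.

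Late G&N-L + Lac-CoA embryos were then set against late G&N-L embryos, which lack this donor of lactyl groups. The Lac-CoA embryos were also injected as zygotes, and no injection is described for G&N-L. Lac-CoA and injection therefore cannot be told apart here. Compared with late G&N-L, Btg4 was -0.71 ± 0.26, Dcp1a -0.71 ± 0.23, Cnot7 -0.42 ± 0.15 and Ythdf2 0.91 ± 0.29, with adjusted p of 0.343, 0.309, 0.333 and 0.308. The 2 groups did not overlap in these 4 genes, nor in Cnot6l (-0.31 ± 0.15) and Pabpn1l (1.0 ± 0.69). That is 6 of 10 members, where 46.8% of 19610 genes did not overlap. No member and no gene (0.0%) passed the threshold, 2609 genes had an unadjusted p under 0.05, and DESeq2 called 1183 genes and edgeR without the filter 3, none of them a member. The summed oocyte-derived transcripts were 15861 and 19261 CPM in G&N-L and 13924 and 14372 CPM with Lac-CoA, with lower estimates in 18 of the 20 genes, a median log2 fold change of -0.58 and no gene called. The sum of the genome activation genes was 1900 and 2256 CPM in G&N-L and 2797 and 2913 CPM with Lac-CoA, with higher estimates in 8 of 8, a median of 0.66 and no gene called. Neither sum overlapped between the groups, and their part in these differences was not tested. The G&N-L libraries also stand in the contrast with G&N, so the values of the 2 comparisons are not independent.

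Late G&N shares no library with G&N-L + Lac-CoA, and those 2 conditions were compared directly. They differ in lactate, in Lac-CoA and in injection, and these cannot be told apart. Btg4 was -0.04 ± 0.27, Cnot7 0.15 ± 0.21, Cnot6l 0.07 ± 0.31 and Ythdf2 -0.34 ± 0.35. None of the 10 members and none of 19613 genes (0.0%) passed the threshold, 1670 genes had an unadjusted p under 0.05, and DESeq2 called 471 genes and edgeR without the filter 22, none of them a member. A p that misses the threshold does not show that the 2 conditions had the same levels. Dcp1a (-0.48 ± 0.29), Tut7 (-0.91 ± 0.44) and Cnot8 (0.24 ± 0.21) did not overlap between the 2 groups, as 39.7% of genes did not.

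**Figure D4:**
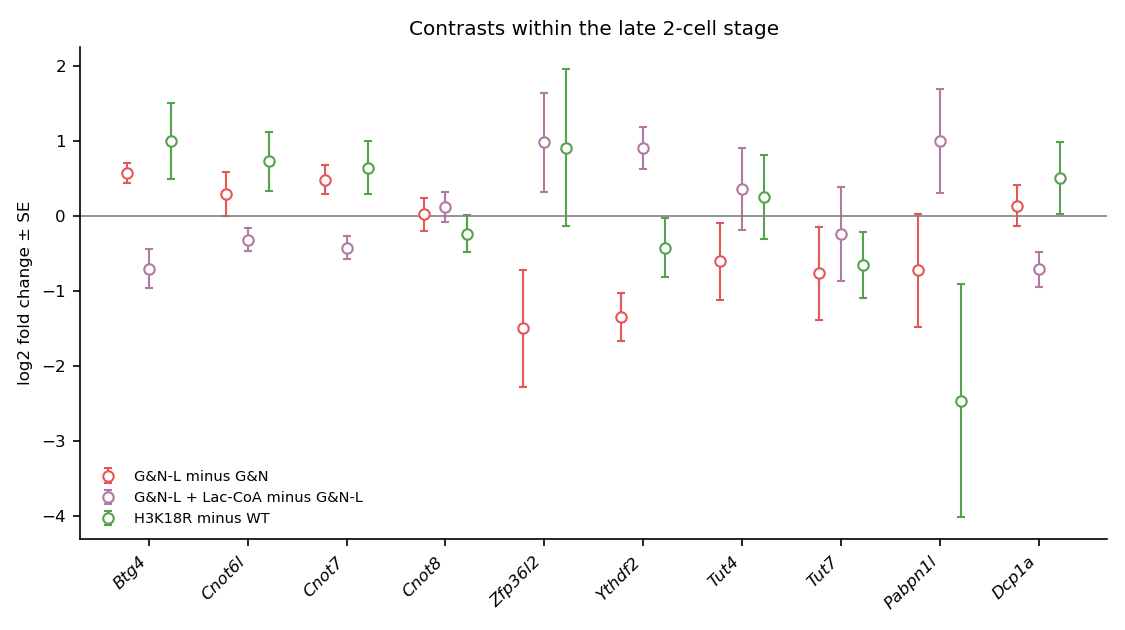
Log2 fold change (± SE) of each gene in 3 contrasts within the late 2-cell stage: G&N-L minus G&N, G&N-L + Lac-CoA minus G&N-L, and H3K18R minus WT. No member had an adjusted p under 0.05. Btg4 lies at 0.58, -0.71 and 1.0 and Ythdf2 at -1.35, 0.91 and -0.42, and the first and second contrasts share the G&N-L libraries.

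The H3K18R embryos were compared with WT to ask what the histone mutant changes. Btg4 was 1.0 ± 0.51, Cnot6l 0.73 ± 0.39 and Cnot7 0.64 ± 0.35, with adjusted p of 0.832, 0.84 and 0.845. None of the 10 members passed the threshold, and 1 of 17704 genes (0.00565%) did, while 1141 had an unadjusted p under 0.05. DESeq2 called 118 genes and edgeR without the filter 78, and none was a member. The H3K18R libraries differed from each other more than from WT in several members: Btg4 was 1352 CPM in the first and 3857 CPM in the second, beside 1298 and 1302 CPM in WT. Leaving out the second H3K18R library took the Btg4 difference from 1.0 to 0.06. Groups did not overlap for Btg4, Cnot7, Cnot8, Tut7 and Pabpn1l, 5 of 10 members, and for 38.9% of all genes. The summed cumulus markers were 42.3 and 31.3 CPM in H3K18R and 12.4 and 25.9 CPM in WT. Of the 19 oocyte-derived transcripts tested, 14 had higher estimates in H3K18R and 5 lower, with a median log2 fold change of 0.36 and none called. Their sum was 17756 and 15571 CPM in H3K18R and 17285 and 16287 CPM in WT. The part of these lists in any difference was not tested.

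The controls of the 2 experiments were also compared at the late stage. Compared with late G&N, WT embryos had 6.26-fold less Btg4 (-2.65 ± 0.17, adjusted p = 0.0413) and 3.24-fold less Cnot7 (-1.70 ± 0.23, adjusted p = 0.0413). These 2 of 10 members passed the threshold, where 4.62% of 18986 genes did, 1.94% higher and 2.68% lower. Dcp1a (-1.65 ± 0.36, adjusted p = 0.0653), Cnot6l (-1.52 ± 0.34, adjusted p = 0.0688) and Ythdf2 (1.33 ± 0.29, adjusted p = 0.067) came next, and 9 of 10 members, all but Tut7, had groups that did not overlap, beside 60.6% of genes. Both calls are fragile: that of Btg4 was lost without the first late G&N library or without either WT library (adjusted p up to 0.0867), and that of Cnot7 without any 1 of the 4 (0.0506 to 0.0949). WT and G&N embryos differ in the drugs, in injection and in any difference between the 2 experiments, and these cannot be told apart. The sum of the genome activation genes was 967 and 1244 CPM in WT and 1674 and 1843 CPM in late G&N, with lower estimates in 8 of 8 and 1 called lower. Of the oocyte-derived transcripts, 16 of 19 tested had lower estimates in WT and 4 were called lower, and their median log2 fold change was -1.37. The sum of the listed 20 differed little, at 17285 and 16287 CPM in WT and 17373 and 17775 CPM in late G&N. The part of these lists in the differences of the members was not tested.

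The members were set beside 108 other genes of mRNA decay and poly(A) metabolism in 8 lists, of which 105 were tested in the stage change with lactate. There 8 rose and 8 fell, 15.2% of those tested beside 13.7% of all genes, and the median log2 fold change was 0.08, the same as over all genes tested. Without lactate 6 of 102 rose and 14 fell, 19.6% beside 11.8% of all genes, of which 5.97% were higher and 5.87% lower. In the other comparisons none passed the threshold, except for WT against late G&N, where 3 were higher and 6 lower of 103, or 8.74% beside 4.62% of all genes. The lists were chosen with results of these data known, so the counts describe them and nothing more. The counts of each list with lactate, given next, stand beside 8.18% of all genes that rose and 5.47% that fell. Of the genes named from the lists for that change, Tob1, Pabpc1 and Pabpn1 kept their call with each library left out in turn, and every other one lost it without the first late G&N library.

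Among the other CCR4-NOT subunits and adaptors, 3 of 13 rose and 1 fell with lactate. Among the listed relatives of Btg4 in the TOB/BTG family of deadenylase adaptors, Tob1 and Btg3 rose from 1.37 ± 0.65 to 69.4 ± 21.5 CPM (5.62 ± 0.53, adjusted p = 0.00712) and from 7.16 ± 1.75 to 52.0 ± 13.0 CPM (2.76 ± 0.45, adjusted p = 0.0214). Cnot3, a structural subunit, fell from 104 ± 25.9 to 30.9 ± 3.30 CPM (-1.80 ± 0.30, adjusted p = 0.0215). No one of the 8 other deadenylases was called with lactate, and 1 fell without it.

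The poly(A) polymerase and poly(A)-binding protein list had 3 of 13 genes that rose and 1 that fell. Pabpn1, the nuclear poly(A)-binding protein that is expressed in most cells and is the paralog of Pabpn1l, had 7 to 27 counts in each early library, or 0.34 ± 0.26 CPM in early G&N, and reached 266 ± 69.9 CPM in late G&N (9.52 ± 0.64, adjusted p = 0.00599), a log2 fold change that was 10.62 without the first early G&N library and 9.01 without the second. Pabpn1l went down over the same interval. Per kilobase, Pabpn1l exceeded Pabpn1 by 262-fold to 992-fold in the early libraries, and Pabpn1 exceeded Pabpn1l by 14.2-fold to 151-fold in all late libraries but 1. That last one, the first H3K18R library, had 2 counts of Pabpn1l. The switch in this pair was present with and without lactate. Pabpc1, the main cytoplasmic poly(A)-binding protein, rose from 1.80 ± 0.61 to 103 ± 19.6 CPM (5.74 ± 0.50, adjusted p = 0.0065), and the polymerase Papolg fell from 93.9 ± 8.13 to 4.16 ± 4.25 CPM (-4.58 ± 0.91, adjusted p = 0.0342). The late G&N libraries had 1.15 and 7.16 CPM of Papolg, and its log2 fold change was -3.82 without the first and -6.44 without the second.

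**Figure D5:**
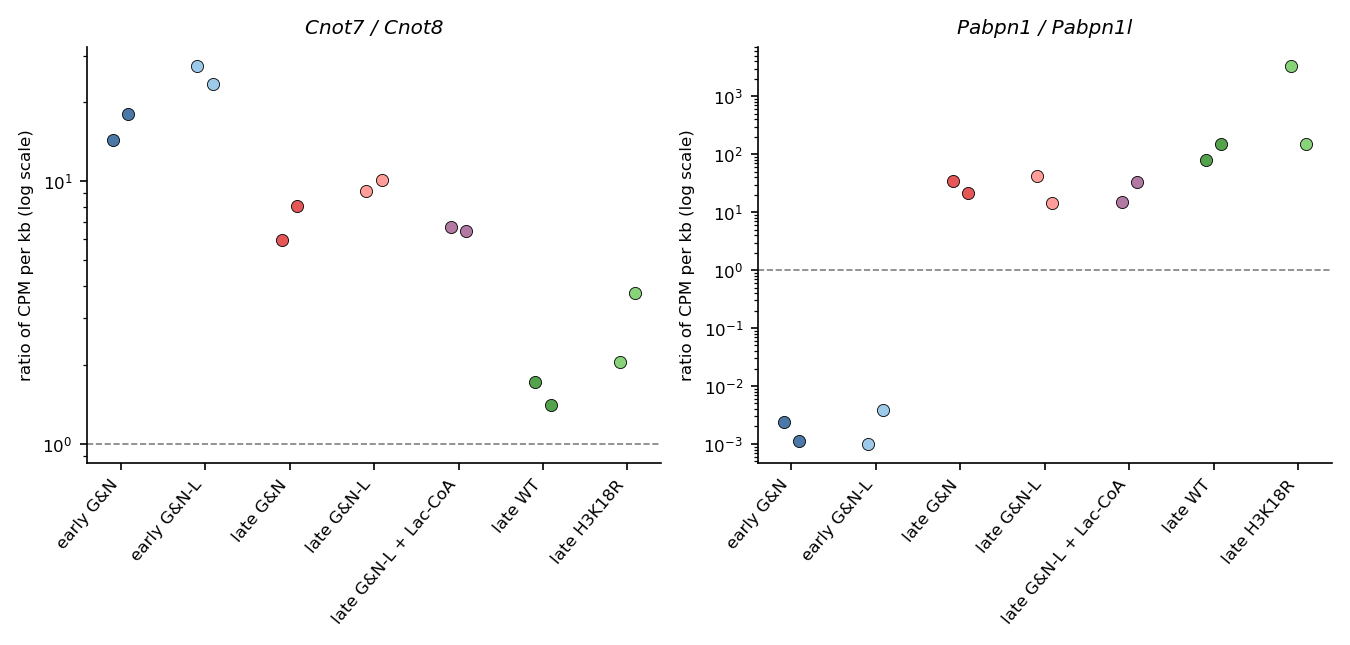
Ratio of CPM per kb of Cnot7 to Cnot8 (left) and of Pabpn1 to Pabpn1l (right) in each library, on log axes, with a dashed line at equal levels. Cnot7 exceeded Cnot8 in every library, least in WT, and Pabpn1 was below Pabpn1l in all 4 early libraries and above it in all 10 late ones.

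Of the 18 decapping and 5′ to 3′ decay genes tested, the fall of Lsm3 from 232 ± 5.41 to 54.9 ± 3.49 CPM was the one call with lactate (-2.15 ± 0.25, adjusted p = 0.0109). Lsm3 belongs to the ring of Lsm proteins that binds shortened tails. Of the 16 exosome genes, Dis3, a catalytic subunit, rose (4.07 ± 0.71, adjusted p = 0.0246, and 3.11 without the first late G&N library), and the core subunits Exosc7 (-1.99 ± 0.42, adjusted p = 0.0388) and Exosc9 (-2.67 ± 0.52, adjusted p = 0.0319) fell. Dis3 and Exosc9 lie over genes on the other strand that reached 5089 and 13607 counts. In the m6A list of 16, the methyltransferase subunit Wtap rose from 735 ± 181 to 1822 ± 451 CPM (1.25 ± 0.28, adjusted p = 0.0449), beside the rise of the reader Ythdf2. Of the 11 RNA-binding regulators tested, 3 fell, led by the germ cell factors Dazl, from 2145 ± 247 to 253 ± 5.13 CPM (-3.15 ± 0.24, adjusted p = 0.00601), and Zar1 (-2.17 ± 0.36, adjusted p = 0.0223). None of 10 genes of nonsense-mediated decay passed the threshold with lactate.

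In WT against late G&N, the genes of these lists that were lower were Cnot2 (-1.25 ± 0.20), the deadenylases Pan2 (-2.56 ± 0.40) and Angel2 (-1.22 ± 0.21), Lsm1 (-2.13 ± 0.27), Dazl (-1.37 ± 0.19) and the poly(A) polymerase Tent5c (-2.11 ± 0.36). Exosc5 (2.59 ± 0.44), Exosc7 (1.79 ± 0.31) and Papola (1.28 ± 0.22) were higher. Their adjusted p lay between 0.0413 and 0.0475, as close to the threshold as those of Btg4 and Cnot7, and each lost its call without the first late G&N library or without either WT library.

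Finally, the genes whose pattern over the 14 libraries was most like that of a member were found by Pearson correlation of log2(CPM + 1), among genes with a mean of at least 1 CPM. For Btg4 these were Serpinb12 (0.99), Dync1i2 (0.99) and Gm44796 (0.99). For Cnot7 it was Gm7145 (0.99), for Dcp1a Vti1b (0.99), for Cnot8 Tfrc (0.99) and for Tut4 Fbxo45 (0.98). Cnot6l had Dvl3 (0.97), Pabpn1l Trim11 (0.97), Tut7 Sft2d1 (0.92) and Zfp36l2 Chst8 (0.89). These values describe libraries that share stage and culture, and nothing about function or control was drawn from them.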

How the data were processed

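Per the labels and the submitters' processing notes, reads were trimmed with Trim Galore, aligned to mm39 with HISAT2 and assigned to genes with featureCounts, and the authors deposited 1 table of raw counts per gene for all 14 libraries. cDNA had been PCR-amplified, with no molecular identifiers mentioned, so limits from counts cover counting error only. The annotation release, the cDNA priming, the strand setting and the tool versions are not given in the sources used here. The 2 columns named K18A were taken as the 2 libraries titled H3K18R, the one mutant in the titles.

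The counts were used as deposited. edgeR 4.0.16 in R 4.3.3 was applied with its default filter on low counts, TMM scaling and quasi-likelihood tests across all genes, fitted on the libraries compared, with Benjamini-Hochberg adjustment and a threshold of 0.05. Errors beside log2 fold changes are approximate standard errors, worked out from the log2 fold change and the F statistic of its quasi-likelihood test. Those beside CPM are SD over 2 libraries. DESeq2 1.42.0, other scalings and filters, all 14 libraries in 1 fit, the replicate number as a block and each library left out were alternatives. Sequences came from GENCODE M39 and GRCm39, and per-kilobase levels used the canonical transcript. The 10 members were named in every comparison. Of the wider lists, at most 4 genes each were named, those past the threshold with the smallest p in each direction in the stage change with lactate, and any called in another comparison except the stage changes. By likeness of pattern, 3 genes were named for Btg4 and 1 for each other member, of which that for Ythdf2 is not reported here. The members and the lists were chosen with earlier results of these data known.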

Additional observations from a re-analysis of the deposited data

How the results depend on the processing

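Over 1025 alternative values for single members, 921 kept direction and side of the threshold, 41 passed it anew, 21 lost it and 42 reversed. The causes of these changes were not tested. For the stage change with lactate, where 3 members and 2654 of 19443 genes were called, DESeq2 called 7 members and 5959 genes, library totals 5 and 2623, no filter 6 and 5060 of 29321, and a minimum of 10 counts in every library 6 and 3217 of 12477. For the stage change without lactate, where 2 and 2203 of 18604 were called, DESeq2 called 6 and 5218. For lactate removal in late embryos, where 0 were called, DESeq2 called 2 (Btg4, Ythdf2) and 916 of 19481 genes, and no filter 1 (Ythdf2) and 317 of 28941. For WT against late G&N, where 2 and 877 of 18986 were called, DESeq2 called 5 and 4104, no filter 6 and 3668 of 28129, a minimum of 10 counts 5 and 2971 of 13033, and all 14 libraries 4 and 1281 of 25041. Of the 3 genes most like Btg4, Spearman's rank correlation shared 1. With 1 library left out, members called ranged from 0 to 4, 0 to 2 and 0 to 2 in the stage changes with and without lactate and in WT against late G&N, and genes called from 220 to 2446, 335 to 1393 and 0 to 435. The replicate numbers did not pair the samples, since correlations of the deviations of same-numbered libraries lay between -0.04 and 0.01. With the replicate number as a block, 3 members and 1839 genes were called with lactate, 1 and 1391 without lactate, where Cnot8 lost its call (adjusted p = 0.0509), and 3 and 804 in WT against late G&N, where Cnot6l was added. Counts were few for Tut4 in the early libraries and Pabpn1l in H3K18R, at 0 to 170 and 2 to 19. The early G&N libraries, with 2 and 22 counts of Tut4, held 61275465 and 53215587 counts in total. The median log2 fold change of all genes in the stage changes moved from 0.08 to 0.46 and from 0.15 to 0.51 with library totals.

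None of the reversed estimates belonged to a member called in that comparison. Cnot7 was 0.09 under library totals in the stage change with lactate. Without lactate it was 0.01 under DESeq2 and under DESeq2 size factors, 0.32 under library totals, 0.08 with a minimum of 10 counts and 0.02 with all 14 libraries. Cnot8 in late lactate removal was -0.03 with all 14 libraries. In early lactate removal Ythdf2 was -0.02 under library totals and -0.11 with all 14 libraries, and Zfp36l2 -0.09 with the latter. In Lac-CoA against lactate, Btg4 was 0.00 under library totals and Cnot6l -0.01 with all 14 libraries. The following ranges over the libraries left out in turn crossed 0. In the stage change with lactate the range was Cnot6l -0.35 to 0.41. In that without lactate the range was Cnot7 -0.12 to 0.09. In late lactate removal they were Cnot8 -0.16 to 0.18, Pabpn1l -1.20 to 0.07 and Dcp1a -0.01 to 0.42. In early lactate removal they were Tut4 -6.47 to 5.80, Pabpn1l -0.41 to 0.50, Zfp36l2 -0.12 to 0.18, Ythdf2 -0.06 to 0.10 and Btg4 -0.25 to 0.02. In Lac-CoA against lactate-free they were Cnot8 -0.03 to 0.29 and Tut7 -0.84 to 0.78. In Lac-CoA against lactate they were Zfp36l2 -1.25 to 0.94, Tut4 -0.41 to 0.06, Btg4 -0.46 to 0.26, Cnot7 -0.07 to 0.36, Pabpn1l -0.15 to 1.08, Cnot6l -0.28 to 0.50 and Ythdf2 -0.71 to 0.07. In H3K18R against WT they were Tut4 -0.60 to 0.78, Zfp36l2 -0.05 to 2.48 and Dcp1a -0.04 to 0.89. In WT against late G&N it was Tut7 -0.16 to 0.71. In the interaction they were Tut4 -6.34 to 5.93 and Cnot6l -0.21 to 0.55.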
